A study of Homo sapiens with 8 samples.

Results

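The transcripts of 9 genes that make leukotrienes and prostaglandins were followed in control and RBM6-KO1 MCF10A cells, untreated and 12 h after ionizing radiation (IR). They are PLA2G4A, ALOX5, ALOX5AP, LTA4H, LTC4S, PTGS1, PTGS2, PTGES and PTGES3, 9 of the 58233 genes in the count table. The genes were chosen by their place in eicosanoid synthesis and by the near loss of ALOX5AP counts in the knockout. For these 9 genes every difference between RBM6-KO1 and control cells is therefore a description and carries no test. Where such a difference is said to be called or past the call threshold, that too is a description.

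MCF10A is a human breast epithelial line that does not form tumors, and the cells of both genotypes here were transformed with the oncogene H-Ras. Cells of both genotypes grew in medium with horse serum, EGF, hydrocortisone, cholera toxin and insulin. The control cells are labelled wild type for RBM6, an RNA-binding protein, and RBM6-KO1 is 1 clone made with CRISPR-Cas9, so what belongs to the clone and what belongs to the loss of RBM6 cannot be told apart. Irradiated cells received 5 Gy of X-rays and recovered for 12 h, and each of the 4 groups has 2 biological replicates, named A and B.

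Eicosanoids are short-lived lipid signals made from arachidonic acid. A phospholipase, such as the cytosolic enzyme encoded by PLA2G4A, releases the acid from membranes, and it then enters one of several branches. In the leukotriene branch the 5-lipoxygenase ALOX5, helped by the membrane protein FLAP (the product of ALOX5AP), makes leukotriene A4, which LTA4H turns into leukotriene B4 and LTC4S into leukotriene C4; this branch is best known from leukocytes. In the prostaglandin branch the cyclooxygenases PTGS1 (COX-1) and PTGS2 (COX-2) make prostaglandin H2, which synthases such as PTGES and PTGES3 turn into prostaglandin E2, a prostanoid that many epithelia make.

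The libraries held between 15355281 and 29832009 counts, so that the limit a count of 0 allows (3 counts) lay between 0.0965 and 0.204 CPM, the unit of counts scaled to the size of their library. All 10 basal epithelial markers were above 3 counts in at least 1 library, and their summed level lay between 5869 and 7919 CPM. RBM6 transcripts stood at 66.8 and 68.7 CPM in untreated control cells and at 61.4 and 63.1 CPM in untreated RBM6-KO1 cells, and at 54.5 and 48.9 CPM against 44 and 33.9 CPM after IR. Neither RBM6 difference passed the quasi-likelihood test of edgeR, adjusted by Benjamini-Hochberg (adjusted p = 0.712 and 0.535), and a count per gene does not show a frameshift or the protein, so these counts do not check the knockout.

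The 9 genes differed widely in level. Per length, as CPM per kilobase of exon (RPKM) averaged over the 8 libraries, PTGES stood at 389, PTGES3 at 106, LTA4H at 23.9, ALOX5AP at 12.5, PLA2G4A at 7.41, PTGS2 at 4.22 and PTGS1 at 0.782. ALOX5 held 0 counts in 7 libraries and 2 counts in the remaining library, control replicate A after IR. LTC4S held 0 counts in all 8 libraries. The order depended on the genotype for ALOX5AP: in untreated control cells it stood at 28.4 and 22.4 RPKM, overlapping LTA4H at 22.6 and 24.5 RPKM, and in untreated RBM6-KO1 cells it stood at 0.468 and 0.243 RPKM, overlapping PTGS1 at 0.467 and 0.364 RPKM.

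**Figure D1:**
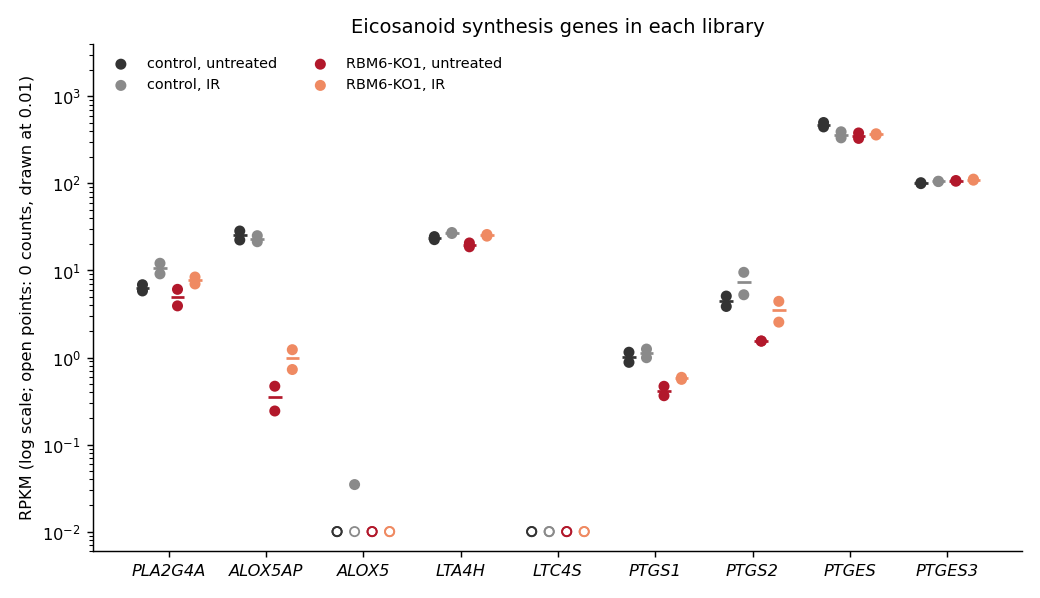
RPKM (log scale) of the 9 genes in each library, with 1 point per replicate, colored by group, and a bar at the mean of the 2 libraries; open points hold 0 counts and are drawn at 0.01. The ALOX5AP points lie between 21.4 and 28.4 RPKM in the 4 control libraries and between 0.243 and 1.23 RPKM in the 4 RBM6-KO1 libraries, and LTC4S has no count in any library.

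ALOX5AP (ENSG00000132965) lies on the plus strand of chromosome 13 from 30713478 to 30764426 (hg38). Its promoter is shown because it belongs to the gene with the largest difference among the 9, together with the promoters of both cyclooxygenases, which were the other genes past the call threshold. The sequences are the 250 bases before the RefSeq start (GRCh38.p14), 5′ to 3′ on the gene's strand, at chr13:30713235-30713484 for ALOX5AP (plus strand), chr9:122370283-122370532 for PTGS1 (plus strand) and chr1:186680424-186680673 for PTGS2 (minus strand). The last 7 bases of the ALOX5AP window lie in the first exon as GENCODE draws it, and the PTGS2 window lies in an intron of a longer GENCODE transcript. Capitals mark matches, on either strand, to 6 searched motifs: the TATA box spelled TATAAA, the CCAAT box spelled CCAAT, the GC box spelled GGGCGG, the E-box spelled CACGTG, the core of the cAMP response element (CRE) spelled TGACG and the AP-1 site spelled TGANTCA.
ALOX5AP: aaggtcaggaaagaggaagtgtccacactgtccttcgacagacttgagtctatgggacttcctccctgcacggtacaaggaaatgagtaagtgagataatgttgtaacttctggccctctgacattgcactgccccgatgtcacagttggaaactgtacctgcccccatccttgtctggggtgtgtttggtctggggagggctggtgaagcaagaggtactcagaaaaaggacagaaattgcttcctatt
PTGS1: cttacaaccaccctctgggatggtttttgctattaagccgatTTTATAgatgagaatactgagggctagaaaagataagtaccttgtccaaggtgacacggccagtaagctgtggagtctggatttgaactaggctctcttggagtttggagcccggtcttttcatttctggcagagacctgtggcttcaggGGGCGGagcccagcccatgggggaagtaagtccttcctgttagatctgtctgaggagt
PTGS2: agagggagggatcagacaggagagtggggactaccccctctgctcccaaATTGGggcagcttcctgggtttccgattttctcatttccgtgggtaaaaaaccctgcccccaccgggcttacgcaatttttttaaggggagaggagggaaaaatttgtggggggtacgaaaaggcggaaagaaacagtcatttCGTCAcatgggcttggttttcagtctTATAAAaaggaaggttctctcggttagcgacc
None of the 6 motifs was found in the ALOX5AP window. The PTGS1 window held the TATA box letters on the opposite strand, 208 to 203 bases before the start, and a GC box 58 to 53 bases before it. The PTGS2 window held a TATA box 32 to 27 bases before the start, the CRE core on the opposite strand at 58 to 54 and the CCAAT box on the opposite strand at 201 to 197. Among 27305 promoter windows of the same length, 11.1% held TATAAA, 33% CCAAT, 42.3% GGGCGG, 6.49% CACGTG, 21.7% TGACG and 6.6% TGANTCA. The ALOX5AP window has 3 CpG dinucleotides, the PTGS1 window 4 and the PTGS2 window 9, beside a median of 11 and quartiles of 3 and 23 over those promoters. Of the 9 genes, 8 were matched in the RefSeq promoter table. A match or its absence describes these letters only.

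In the leukotriene branch, ALOX5AP was nearly lost from RBM6-KO1 cells while LTA4H was not. Control cells held 779 and 702 ALOX5AP counts untreated (47.8 and 37.6 CPM) and 653 and 1120 counts after IR (42.2 and 36 CPM). RBM6-KO1 cells held 14 and 6 counts untreated (0.787 and 0.408 CPM) and 40 and 25 counts after IR (2.06 and 1.22 CPM). All 4 control libraries lay far above all 4 RBM6-KO1 libraries, and all 4 RBM6-KO1 values lay above the limit that a count of 0 allows.
The log2 fold change of ALOX5AP in RBM6-KO1 against control cells was -6.12 (SE 0.30) in untreated cells, or 69.4-fold lower, and -4.56 (SE 0.30) after IR, or 23.6-fold lower. Taken over the summed counts, the control level was 68.8 times that of RBM6-KO1 in untreated cells (exact 95% interval 44.4 to 113) and 23.3 times after IR (18.2 to 30.4), where the intervals cover counting error only.

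LTA4H, the leukotriene A4 hydrolase, stood at 167 and 182 CPM in untreated control cells and 202 and 197 CPM after IR. In RBM6-KO1 cells it stood at 153 and 138 CPM untreated and 183 and 192 CPM after IR. Both untreated RBM6-KO1 libraries were the lowest of the 8. The log2 fold change against control was -0.27 (SE 0.14) untreated and -0.08 (SE 0.14) after IR. ALOX5 and LTC4S, the lipoxygenase itself and the leukotriene C4 synthase, were too low to be tested in any comparison. ALOX5AP and LTA4H transcripts were therefore measured in cells where the transcript of the lipoxygenase between them was at or below the limit of 3 counts in every library.

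ALOX5AP is best known from leukocytes, so the leukocyte markers stand beside it. Of 10 such markers, 7 were never above 3 counts (PTPRC, SPI1, CD68, TPSAB1, CPA3, CD3E and MS4A1) and 4 of these were at 0 in all libraries (TPSAB1, CPA3, CD3E and MS4A1). The summed level of the list was 15.4 to 21.2 CPM in untreated control cells, 17.5 to 20.2 in control cells after IR, and in RBM6-KO1 cells 8.77 to 9.17 untreated and 10.4 to 11.1 after IR. CD14, a co-receptor for bacterial lipopolysaccharide, made up much of it in control cells, at 15.5 ± 4.87 CPM untreated and 11.9 ± 0.0652 after IR against 4.48 ± 1.16 and 5.21 ± 0.377 CPM in RBM6-KO1 cells (mean ± SD, n = 2). PTPRC (CD45), which marks nearly all leukocytes, and SPI1, a myeloid transcription factor, were never above 3 counts in any library, whereas ALOX5AP held up to 1120.
CSF1R, the receptor for the macrophage growth factor CSF-1, went the other way in untreated cells, at 2.5 ± 0.804 CPM in control and 4.29 ± 0.777 CPM in RBM6-KO1 cells (log2 fold change 0.78, adjusted p = 0.205 by edgeR), and its groups overlapped after IR, at 5.94 ± 1.67 and 5.15 ± 0.153 CPM (mean ± SD, n = 2). The lower sum of the leukocyte list in untreated RBM6-KO1 cells was thus that of CD14 (log2 fold change -1.81, adjusted p = 0.000373 by edgeR).

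The other marker lists also differed between the genotypes. The summed luminal markers stood at 700 to 746 CPM in untreated control against 445 to 561 CPM in untreated RBM6-KO1 cells, and at 447 to 632 against 356 to 430 CPM after IR, without overlap in either. Of the 7 luminal markers, KRT19 and PGR were never above 3 counts. The keratins KRT18 and KRT8 made up most of the sum, with untreated log2 fold changes of -0.63 (adjusted p = 0.0175 by edgeR) and -0.46 (adjusted p = 0.0626 by edgeR), and FOXA1, a luminal transcription factor, had -0.75 (adjusted p = 0.167 by edgeR). KRT18, KRT8 and FOXA1 were thus lower in untreated RBM6-KO1 cells, with KRT18 alone of these 3 markers past the adjusted p. None of the 3 was called in either treatment. After IR FOXA1 stood at 4.97 ± 0.162 CPM in control against 2.31 ± 0.227 CPM in RBM6-KO1 cells. KRT18 stood at 253 ± 73.3 against 170 ± 33.5 CPM after IR, and KRT8 at 266 ± 57.9 against 208 ± 17.6 CPM (mean ± SD, n = 2). GATA3 differed little in untreated cells, at 17 ± 0.65 CPM in control against 15.3 ± 0.0834 CPM in RBM6-KO1. ESR1 was barely counted there, at 0.195 ± 0.103 against 0.208 ± 0.103 CPM (mean ± SD, n = 2). The summed basal markers stood at 6978 to 7919 CPM in control against 6671 to 6907 CPM in RBM6-KO1 cells untreated, and at 7463 to 7630 against 5869 to 6678 CPM after IR.

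The summed fibroblast markers were higher in RBM6-KO1 cells, at 80.9 to 81.5 CPM in control against 119 to 155 CPM untreated and at 91 to 108 against 173 to 211 CPM after IR. DCN made up most of this sum in every group. DCN, the proteoglycan decorin, stood at 68 ± 2.03 against 128 ± 23.7 CPM untreated (log2 fold change 0.91, adjusted p = 0.00147 by edgeR) and at 86.2 ± 11.1 against 185 ± 26.6 CPM after IR (1.11, adjusted p = 0.0389 by edgeR; mean ± SD, n = 2). COL1A1, a chain of type I collagen, lay the opposite way, at 12.9 ± 2 against 7.77 ± 2.05 CPM untreated (log2 fold change -0.74, adjusted p = 0.0864 by edgeR) and at 11.8 ± 0.339 against 5.24 ± 0.269 CPM after IR (-1.17, adjusted p = 0.0612 by edgeR; mean ± SD, n = 2). COL1A2 and COL3A1 were never above 3 counts in any library. The part of these marker differences in the values of the 9 genes was not tested, and in bulk libraries fewer cells of a type and less RNA per cell cannot be told apart.

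In the prostaglandin branch both cyclooxygenases were lower in untreated RBM6-KO1 cells. PTGS1 (chromosome 9, 122370530 to 122395703, plus strand), often called the constitutive cyclooxygenase, stood at 5.09 and 6.64 CPM in untreated control cells and 5.76 and 7.2 CPM after IR. The RBM6-KO1 values were 2.7 and 2.11 CPM untreated and 3.25 and 3.43 CPM after IR. The 4 control libraries lay above the 4 RBM6-KO1 libraries, on counts of only 31 to 224. The log2 fold change was -1.29 (SE 0.30, 2.45-fold lower) untreated and -0.96 (SE 0.26) after IR. The untreated value was no longer past the call threshold by DESeq2 (-1.30) or without control replicate B (-1.07).

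PTGS2 (chromosome 1, 186671791 to 186680922, minus strand), the inducible cyclooxygenase, stood at 27.8 and 21.2 CPM in untreated control cells and 28.8 and 52.2 CPM after IR. In RBM6-KO1 cells it stood at 8.49 and 8.42 CPM untreated and 14 and 24.2 CPM after IR. Within each treatment the RBM6-KO1 libraries were lower than the control libraries, and after IR the 2 replicates of each genotype were far apart. The log2 fold change was -1.54 (SE 0.21, 2.92-fold lower) untreated and -1.09 (SE 0.36) after IR, and the second value ran from -1.54 to -0.60 as single libraries were left out, with -0.60 without control replicate B. An antisense transcript, PACERR, overlaps PTGS2 and held 0 to 7 counts.

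The synthases downstream differed less. PTGES, the microsomal prostaglandin E synthase, stood at 843 and 947 CPM in untreated control cells and 740 and 632 CPM after IR. Its RBM6-KO1 libraries gave 623 and 719 CPM untreated and 703 and 682 CPM after IR. The untreated control libraries were the 2 highest of the 8, and the log2 fold change was -0.43 (SE 0.14) untreated and 0.02 after IR. PTGES3, the cytosolic synthase and HSP90 co-chaperone p23, stayed between 338 and 382 CPM in all 8 libraries, with log2 fold changes of 0.08 and 0.07. Its processed pseudogenes held fewer counts, 36 to 127 for PTGES3P1 and 6 to 29 for PTGES3P3, and how reads were shared between the copies is not known.
PLA2G4A, upstream of both branches, stood at 19.7 and 16.8 CPM in untreated control cells and 26.3 and 34.7 CPM after IR. In RBM6-KO1 cells it stood at 17.5 and 11.3 CPM untreated and 20.2 and 24.2 CPM after IR. The untreated groups overlapped. The log2 fold change was -0.35 (SE 0.23) untreated and -0.46 (SE 0.22) after IR.

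A gene was called where edgeR gave an adjusted p under 0.05, with Benjamini-Hochberg adjustment over all genes tested, and at least a 2-fold change. In untreated cells 3 of the 7 tested genes were past this threshold, all lower in RBM6-KO1 (ALOX5AP, PTGS1 and PTGS2), where 3.12% of 15556 genes were called, 1.97% lower and 1.16% higher. After IR 1 of the 7 was past it (ALOX5AP), where 1.17% of 15587 genes were called, 0.815% lower and 0.353% higher. The groups did not overlap for 5 genes that were lower and 1 that was higher in RBM6-KO1, both untreated and after IR, where 23.9% of all genes were lower without overlap and 23.8% higher in untreated cells, and 20.2% lower and 18.5% higher after IR. The median log2 fold change of the 7 genes was -0.43 untreated and -0.46 after IR, beside 0.01 and 0.02 over all genes tested. Nothing is read from these calls, shares or medians, since the genes were chosen on this difference.

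**Figure D2:**
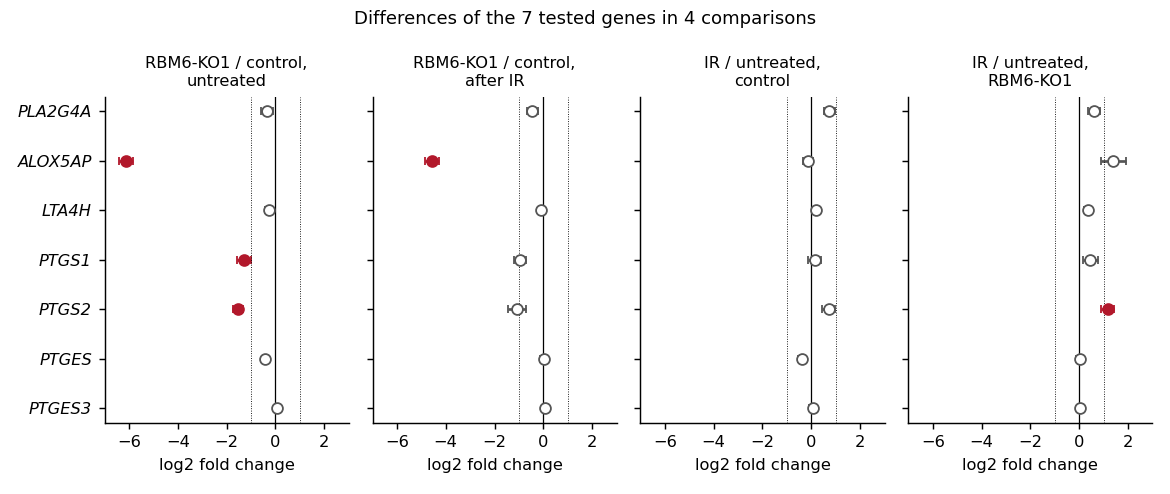
Log2 fold changes of the 7 tested genes in 4 comparisons, 1 panel each, with bars of 1 SE; filled points are past the call threshold and dotted lines mark a 2-fold change. ALOX5AP stands apart at -6.12 and -4.56 in the knockout panels, where filled points are a description and no test. PTGS2 is the filled point in the panel for IR in RBM6-KO1 cells, at 1.16.

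The comparison of irradiated with untreated cells asked which of these transcripts moved 12 h after 5 Gy. Here the differences were tested, with a limit. The libraries compared here also enter the differences between the genotypes on which the genes were chosen. The p-values of the 7 genes, that of PTGS2 in RBM6-KO1 cells included, are therefore not fully free of that choice. A further limit for ALOX5AP in RBM6-KO1 cells is given below. Each group enters 2 comparisons, so the comparisons share libraries. In control cells 0 of the 7 genes were called, beside 3.59% of 15412 genes (1.68% higher and 1.91% lower), and DESeq2 also called 0, while 3 of the 7 had an unadjusted p under 0.05. These were PLA2G4A at a log2 fold change of 0.74 (SE 0.22, adjusted p = 0.071 by edgeR), PTGS2 at 0.72 (SE 0.27, adjusted p = 0.128 by edgeR) and PTGES at -0.39 (SE 0.17, adjusted p = 0.177 by edgeR). The share of all genes at an unadjusted p under 0.05 was not counted here, so nothing is read from that number. PTGS2 in control cells depended on single libraries, since its log2 fold change was 1.10 and past the threshold without control replicate A after IR and 0.23 without control replicate B after IR. ALOX5AP in control cells had a log2 fold change of -0.14 (SE 0.20, adjusted p = 0.698 by edgeR). The groups did not overlap for 4 genes that were higher after IR and 1 that was lower, where 29.5% of all genes were higher without overlap and 27.6% lower.

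In RBM6-KO1 cells PTGS2 rose after IR and was the 1 gene of the 7 that was called, where 3.11% of 15598 genes were called, 1.13% higher and 1.97% lower. Its level went from 8.49 and 8.42 CPM to 14 and 24.2 CPM, a log2 fold change of 1.16 (SE 0.27, 2.23-fold, adjusted p = 0.0426 by edgeR), and the groups did not overlap. This call was lost in a fit over all 8 libraries (1.17, adjusted p = 0.0602 by edgeR) and without RBM6-KO1 replicate B after IR (0.72, adjusted p = 0.138 by edgeR).
ALOX5AP in RBM6-KO1 cells went from 14 and 6 counts to 40 and 25, a log2 fold change of 1.40 (SE 0.52). It did not pass the test (adjusted p = 0.113 by edgeR) and passed it with no filter on low counts (1.43, adjusted p = 0.0352 by edgeR). ALOX5AP was chosen on its low RBM6-KO1 counts, which enter this comparison, so these p-values are not free of that choice. Even the higher of the irradiated RBM6-KO1 libraries, at 2.06 CPM, stayed far below the lowest control library, at 36 CPM. PLA2G4A had a log2 fold change of 0.60 (SE 0.24, adjusted p = 0.128 by edgeR), LTA4H of 0.35 (SE 0.15, adjusted p = 0.15 by edgeR) and PTGS1 of 0.45 (SE 0.31, adjusted p = 0.345 by edgeR). Without overlap 6 of the 7 genes were higher after IR and 0 lower, where 32.6% of all genes were higher and 29.5% lower without overlap. The median log2 fold change of the 7 genes was 0.14 in control and 0.45 in RBM6-KO1 cells, beside 0.02 and -0.01 over all genes tested.

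Whether the response to IR itself differed between the genotypes was tested as an interaction over the 8 libraries, written as the log2 response in RBM6-KO1 minus that in control cells. None of the 7 genes passed edgeR's test (0 of 16549 genes did, 0%, and 0% of 32842 genes by DESeq2). For 1 of the 7, ALOX5AP, the unadjusted p was under 0.05, as it was for 1.85% of all genes. Nothing is read from this, since ALOX5AP was chosen on the RBM6-KO1 and control values that enter the interaction. The interaction was 1.54 for ALOX5AP (SE 0.47, adjusted p = 1 by edgeR), 0.44 for PTGS2 (unadjusted p = 0.342 by edgeR), 0.43 for PTGES, 0.32 for PTGS1, 0.17 for LTA4H and -0.13 for PLA2G4A. The rise of PTGS2 was called in RBM6-KO1 and not in control cells, and the difference between these responses did not pass the test. On simulated data the interaction test found 113 of 200 genes changed by a log2 value of 1.5 and 139 of 200 changed by 2. A difference that did not pass therefore does not show that the responses were alike.

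The rest of the pathway was read from 70 further genes in 7 lists. Of these, 6 were at 0 in all libraries and 17, these 6 included, were never above 3 counts. In untreated cells 40 could be tested, of which 2 were called, both lower in RBM6-KO1 (PLAAT3 and SLCO2A1), and 0 higher, beside the 3.12% of all genes given above. The lists were chosen with earlier results of these data known, so these calls are not free of that choice. After IR 0 of 45 were called between the genotypes by edgeR or by DESeq2, with 9 at an unadjusted p under 0.05. By IR itself 0 of 42 were called in control cells and 0 of 41 in RBM6-KO1 cells by either tool, with 13 in each at an unadjusted p under 0.05, and 0 of 43 passed the interaction, with 2 at an unadjusted p under 0.05 and 0 by DESeq2. The share of all genes at such a p was counted for the interaction alone (1.85%). Nothing is therefore read from the numbers of genes at an unadjusted p under 0.05. The median log2 fold change of the pathway genes was 0.02 and 0.03 between the genotypes and 0.01 and 0.06 by IR, in untreated and irradiated cells and in control and RBM6-KO1 cells in turn.

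**Figure D3:**
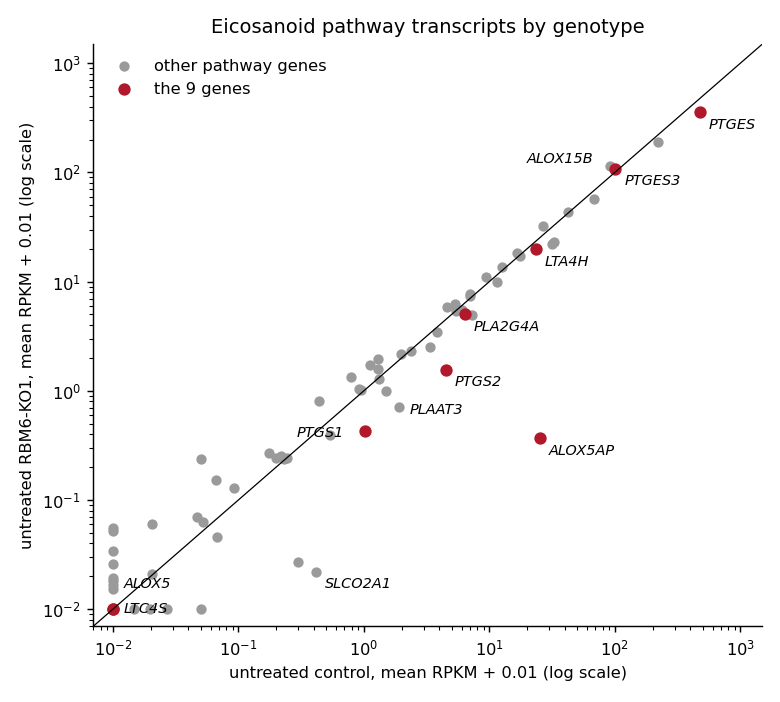
Mean RPKM plus 0.01 (log scales) of the 9 genes in red and of the 70 other pathway genes in grey, in untreated control cells across and untreated RBM6-KO1 cells up; the line marks equal levels. ALOX5AP lies farthest from the line among genes above 1 RPKM in control cells, and ALOX5 and LTC4S coincide at 0.

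PLAAT3, a phospholipase of the release step, stood at 5.52 and 6.11 CPM in untreated control cells and 5.37 and 4.73 CPM after IR. In RBM6-KO1 cells it stood at 2.14 and 2.17 CPM untreated and 3.09 and 2.3 CPM after IR. All control libraries were above all RBM6-KO1 libraries. It fell in untreated RBM6-KO1 cells, with a log2 fold change of -1.44 (SE 0.30, 2.72-fold, adjusted p = 0.00547 by edgeR), and stood at -0.89 after IR (SE 0.28, adjusted p = 0.269 by edgeR).
SLCO2A1, the transporter that takes prostaglandins into cells for breakdown, held 29 and 44 counts in untreated control cells and 11 and 36 after IR. RBM6-KO1 libraries held 1 and 1 untreated and 3 and 6 after IR. It fell in untreated RBM6-KO1 cells (adjusted p = 0.000236 by edgeR), where the control level was 33.9 times that of RBM6-KO1 over the summed counts (exact 95% interval 9.06 to 285). After IR the same ratio was 4.47 (2.16 to 10.4, adjusted p = 0.199 by edgeR). SLCO2A1 passed the filter on low counts through its control libraries alone, so its p-values are not free of that filter. The gene drops out where every library must hold at least 10 counts.

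Of the 18 genes of the release list, 9 were tested in untreated cells and PLAAT3 alone was called. MBOAT7, which returns arachidonic acid to phosphatidylinositol and is the most abundant gene of that list at 26.9 RPKM, passed the adjusted p alone in untreated cells, at a log2 fold change of -0.52 (SE 0.14, adjusted p = 0.0293 by edgeR). Of the 5 other lipoxygenases 3 were tested and 0 called by edgeR in any comparison. ALOX15B, a 15-lipoxygenase, was the most abundant of them at 125 RPKM, above ALOX5AP in every group. Its level was 91.5 ± 7.15 RPKM in untreated control cells, 111 ± 0.553 after IR, and in RBM6-KO1 cells 114 ± 16.2 untreated and 181 ± 8.35 after IR (mean ± SD, n = 2). ALOX15B passed the adjusted p alone by IR in RBM6-KO1 cells, at 0.64 (SE 0.16, adjusted p = 0.047 by edgeR), and did not between the genotypes after IR, at 0.71 (SE 0.14, adjusted p = 0.0833 by edgeR).

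Of the 11 genes of leukotriene processing, 6 to 8 were tested and 0 called. MGST1, a membrane glutathione transferase, led that list at 44.9 RPKM, with a log2 fold change of 0.02 untreated and 0.38 after IR (adjusted p = 0.957 and 0.366 by edgeR). GGT5, which turns leukotriene C4 into leukotriene D4 and was picked after its values were seen, passed the adjusted p alone by IR in both genotypes, at -0.85 in control cells (SE 0.19, adjusted p = 0.0314 by edgeR) and -0.81 in RBM6-KO1 cells (SE 0.20, adjusted p = 0.0488 by edgeR). Of the 9 other prostanoid synthases 6 were tested and 0 called. AKR1B1, an aldo-keto reductase with prostaglandin F synthase activity, led that list at 185 RPKM, and its log2 fold change was -0.21 untreated and 0.26 after IR (adjusted p = 0.609 and 0.608 by edgeR). AKR1C3, another prostaglandin F synthase, also picked after its values were seen, passed the adjusted p alone in untreated RBM6-KO1 cells, at -0.54 (SE 0.15, adjusted p = 0.0364 by edgeR).

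In the remaining lists the most abundant genes did not pass the test between the genotypes. EPHX1, an epoxide hydrolase, led the epoxygenase list at 61.9 RPKM, with log2 fold changes between the genotypes of -0.25 and 0.02 (adjusted p = 0.393 and 0.992 by edgeR). PTGR1, a reductase that inactivates leukotriene B4 and prostaglandin metabolites, led breakdown and transport at 17.2 RPKM, with -0.03 and -0.04 (adjusted p = 0.942 and 0.975 by edgeR). LTB4R, a receptor for leukotriene B4, led the receptors at 4.8 RPKM, with -0.10 and -0.26 (adjusted p = 0.844 and 0.821 by edgeR). Of the 14 receptors 6 or 7 were tested and 0 called in any comparison, and 5 were never above 3 counts.

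The profile of ALOX5AP over the 8 libraries was compared with that of 16548 other genes by Pearson's r of log2 CPM, as a description over libraries that share genotype and treatment. The 5 genes most like it were IRF5 (r = 0.992), FADS2 (r = 0.991), FGFR1 (r = 0.99), SLC2A3 (r = 0.988) and TMEM184B (r = 0.988). A high r was not rare: 369 genes were above 0.9 and 132 above 0.95, and all of these points share the division into control and RBM6-KO1 libraries. These 5 genes were lower in untreated RBM6-KO1 cells by much less than ALOX5AP, with log2 fold changes of -1.07 for IRF5, -1.54 for FADS2, -0.65 for FGFR1, -2.96 for SLC2A3 and -0.41 for TMEM184B. FADS2, a fatty acid desaturase on the route from linoleic to arachidonic acid, stood at 116 ± 8.9 CPM in untreated control and 40.2 ± 2.46 CPM in untreated RBM6-KO1 cells (mean ± SD, n = 2). Among the 9 genes PTGS1 (r = 0.95) and PTGS2 (r = 0.803) were most like ALOX5AP, then LTA4H (0.607), PLA2G4A (0.541) and PTGES (0.52), with PTGES3 at -0.702. PLAAT3 (r = 0.979) and SLCO2A1 (r = 0.934) also had a high r, and both were named because they were called lower in untreated RBM6-KO1 cells.

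The genes around ALOX5AP on chromosome 13 did not share its difference in size. Within 500 kb of its lower coordinate 4 of 7 protein-coding genes could be tested, and none was called between the genotypes by edgeR, untreated or after IR. HMGB1, a chromatin protein whose lower coordinate lies at -257 kb from that of ALOX5AP, had log2 fold changes of 0.07 and 0.01 (adjusted p = 0.883 and 0.996 by edgeR). USPL1, a SUMO peptidase at -95.8 kb, had -0.17 and -0.13 (adjusted p = 0.74 and 0.927 by edgeR). HSPH1, a heat shock protein at 421 kb, had 0.27 and 0.17 (adjusted p = 0.429 and 0.82 by edgeR), and B3GLCT, a glucosyltransferase at 486 kb, had -0.20 and -0.08 (adjusted p = 0.761 and 0.973 by edgeR).

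**Figure D4:**
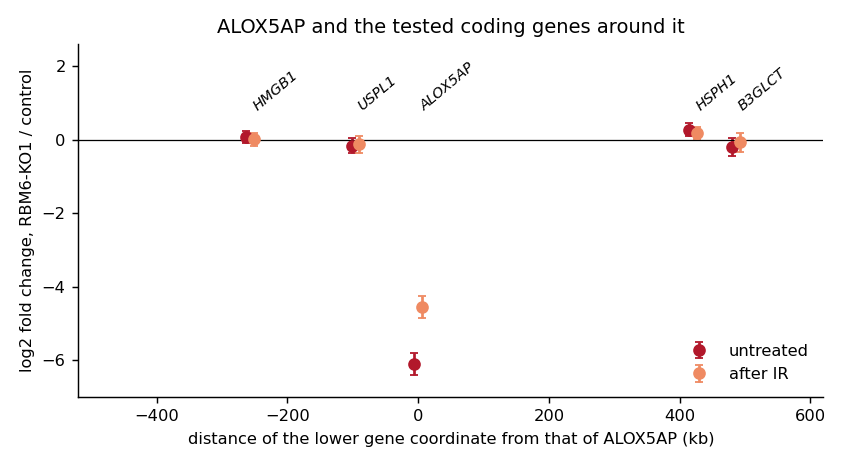
Log2 fold change of RBM6-KO1 against control cells, untreated and after IR, with bars of 1 SE, against the distance of a gene's lower coordinate from that of ALOX5AP in kb, with the 2 points of a gene set slightly apart. ALOX5AP lies at -6.12 and -4.56, and the 4 tested neighbours lie between -0.20 and 0.27.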

How the data were processed

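RNA of control and RBM6-KO1 MCF10A-Hras cells was sequenced in 2 biological replicates per group from TruSeq mRNA libraries. The deposited values are raw counts for each Ensembl gene, which the authors made from paired reads aligned to hg38; the submitters' processing notes name STAR and DESeq2, and the counting tool, annotation release and strandedness are not given in the sources used here. Without strand, reads of a gene and its antisense partner cannot be told apart. Symbols, positions and exon lengths came from GENCODE v44, which named 57392 of the 58233 genes. All columns were used.

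The count tests ran in edgeR 4.0.16 under R 4.3.3 (TMM, filterByExpr, quasi-likelihood test), each comparison on its own 4 libraries and the interaction on all 8. A call needed a Benjamini-Hochberg adjusted p under 0.05 over all genes tested and a 2-fold change. The SE is the log2 fold change divided by the square root of F. CPM and RPKM used TMM-scaled library sizes. The scripts were tested on simulated data.

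The 9 genes and the lists were chosen with earlier results of these data known. The text names the 9 genes, pathway genes that were called, the most abundant gene of each list, the 5 genes most like ALOX5AP in log2 CPM (prior count 2), tested coding genes within 500 kb, RBM6 and the markers; AKR1C3 and GGT5 fall outside this rule. Alternatives were DESeq2 size factors, the Wald test of DESeq2 1.42.0, no filter, at least 10 counts in every library, 1 fit of all 8 libraries, the replicate letter as a block, and leaving out single libraries. Counting intervals and limits cover counting error only, since reads without molecular identifiers are not independent molecules.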

Additional observations from a re-analysis of the deposited data

How the results depend on the processing

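With 2 libraries per group, leaving 1 out assumes that the lone library varies like the others. Of the values for single genes, 451 kept their direction and their side of the threshold, 9 passed it only under an alternative, 4 no longer passed it, and 11 changed sign, all 11 with a library left out. Of the counts of called genes and the like, 87 stayed close, 16 were larger and 3 smaller.

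Between the genotypes in untreated cells, the 2 called pathway genes became 1 with at least 10 counts in every library, which SLCO2A1 cannot meet. After IR, the 1 called of the 9 genes became 2 by DESeq2, with no filter and with the replicate block, and 1 to 3 with a library left out (3 without control replicate A, where PTGS1 passed at -1.11); the second was PTGS2, at -1.08, -1.08 and -1.07. The 0 called pathway genes became 3 with no filter, 3 with the replicate block, 1 in the fit over all 8 libraries and 0 to 2 with a library left out. By IR in control cells, the 0 called of the 9 genes became 0 to 1 with a library left out, and the 0 pathway genes 3 with no filter and 0 to 1 with a library left out. By IR in RBM6-KO1 cells, the 1 called of the 9 genes became 2 with no filter, 0 in the fit over all 8 libraries and 0 to 1 with a library left out, and the 0 pathway genes 1 with no filter and 0 to 3 with a library left out (3 without RBM6-KO1 replicate A after IR). The cause of these changes was not tested.

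With a library left out, log2 fold changes that changed sign ran from -0.10 to 0.13 for PTGES between the genotypes after IR, from -0.29 to 0.03 for ALOX5AP and from -0.06 to 0.35 for PTGS1 by IR in control cells, from -0.06 to 0.14 for PTGES by IR in RBM6-KO1 cells, and from -0.41 to 0.24 for PLA2G4A, -0.02 to 0.97 for PTGS2 and -0.05 to 0.00 for PTGES3 in the interaction.

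The labels do not say that a replicate letter marks a shared batch. Deviations of same-lettered libraries from their group means correlated between -0.28 and 0.35 across 16549 genes. The pairs of genotypes stood at 0.0789 untreated and 0.35 after IR, and the pairs by IR at -0.181 and -0.257. With signs this mixed the letters were not taken as pairs. Whether the irradiated B libraries share a shift was not tested, and PTGS2 was higher in replicate B after IR in both genotypes. Beside the counts of calls given above, the replicate block moved no count of calls by over 1.5 times. Depth limits what can be said of ALOX5 and LTC4S, which held at most 2 counts in a library, and of SLCO2A1, which held 1 in each untreated RBM6-KO1 library.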
